A study of Mus musculus with 8 samples.

Results

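The genes described here are 8 members of the Abcc subfamily of ATP-binding cassette proteins, Abcc1, Abcc2, Abcc3, Abcc4, Abcc5, Abcc6, Abcc9 and Abcc10, of 18201 genes that the array read with a probe set of a single symbol. Every probe set annotated to a member was taken and read on its own, which gave 21 of the 45037 probe sets tested. None of the 21 carried a second gene symbol. Abcc2, Abcc3, Abcc4 and Abcc6 were each read by 1 probe set, Abcc1 and Abcc10 by 2, Abcc9 by 3 and Abcc5 by 10.

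Most Abcc proteins are pumps that use ATP to move organic anions out of the cell, among them compounds that phase II enzymes have joined to glutathione, glucuronic acid or sulfate. In hepatocytes Abcc2 lies in the canalicular membrane and exports conjugates into bile, whereas Abcc3, Abcc4 and Abcc6 lie in the basolateral membrane, facing the blood. Abcc9 is the exception in function: it is a sulfonylurea receptor, the regulatory subunit of an ATP-sensitive potassium channel. The transcription factor Nrf2, which binds antioxidant response elements, is a known activator of several genes of the subfamily.

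Liver RNA came from 8 young adult male mice, each on its own array. The 4 control livers were txnrd1cond/+;albCre0 (animals 70, 71, 80 and 82), with a conditional and a wild-type allele of txnrd1, the gene of cytosolic thioredoxin reductase, and no Cre transgene. The other 4 livers were txnrd1cond/-;albCre1 (animals 69, 72, 73 and 81), with a conditional and a null allele and a Cre transgene driven by the albumin promoter, which is active in hepatocytes. They are called txnrd1-/- here, after the genotype of their hepatocytes. The non-hepatocyte cells of these livers stayed txnrd1cond/-, and the groups differ in the Cre transgene and in the second allele as well as in the deletion. All mice were housed singly before an early-afternoon harvest under the same light cycle and received no other treatment named in the labels. Of the strain the sources used here say nothing.

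The deposited values are linear ratios in which 1 is about the median of a probe set over the 8 livers, so a ratio compares livers for 1 probe set and does not give the level of an mRNA. The ratios cannot show which cell types were present, nor can fewer cells of a type be told apart from less RNA per cell. The mean log2 ratio over 14 hepatocyte probe sets (8 genes) lay between -0.00 and 0.08 in control livers and between -0.11 and 0.07 in txnrd1-/- livers, and that over 8 cholangiocyte probe sets (5 genes) between -0.19 and 0.08 and between -0.13 and 0.12. The 3 Txnrd1 probe sets had log2 fold changes of 1.11, -0.71 and -0.41, and no source used here places them relative to the deleted part, so they do not check the labels. The liver of animal 81 stood apart: 89 probe sets were at least 2-fold above all other livers there, against 1 to 40 in each other liver. Its log2 differences between 3' and 5' control probe sets were -0.10 for Gapdh and -0.23 for b-actin, each the lowest of the 8. The control liver of animal 82 had 126 probe sets at least 2-fold below all others. Values without animal 81 or animal 82 are therefore given for several of the members and for Abcc12.

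The sequences of the genes whose mRNA differed most are shown first. RT-PCR primers that the study designed for the mRNAs of Abcc3 and Abcc4 read as follows, 5′ to 3′. The tail up to the end of the restriction site is in lower case and the remaining bases are in capitals. The capitals were not aligned to the genes here.
Abcc3 forward: tatggatccTGGTTTTAGACGAGGCCACTG
Abcc3 reverse: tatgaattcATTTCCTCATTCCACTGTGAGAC
Abcc4 forward: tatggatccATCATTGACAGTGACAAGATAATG
Abcc4 reverse: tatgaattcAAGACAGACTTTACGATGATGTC

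Promoter windows, from 250 bases before to 50 bases after a RefSeq gene start (GRCm38.p6), were at hand for 5 of the 8 members, in 7 windows. Abcc1, Abcc3 and Abcc6 had none in the table. Both strands were searched for the letters TGACNNNGC, a core of the antioxidant response element, and GCGTG, the core that the Ah receptor binds. The 2 windows of Abcc4 and the window of Abcc2 are printed because those genes differed between the genotypes. The window of Abcc5 is printed as an example that held neither core. The window of Abcc9, not printed, held neither core as well. Capitals mark the matches.
Abcc4, chr14:118706170-118706469, minus strand: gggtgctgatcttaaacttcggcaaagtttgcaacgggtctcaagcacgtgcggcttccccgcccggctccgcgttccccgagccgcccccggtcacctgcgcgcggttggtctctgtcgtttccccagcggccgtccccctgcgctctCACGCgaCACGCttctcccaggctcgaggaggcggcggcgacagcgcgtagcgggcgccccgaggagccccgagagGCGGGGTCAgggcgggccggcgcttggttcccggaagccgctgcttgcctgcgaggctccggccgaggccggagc
Abcc4, chr14:118676882-118677181, minus strand: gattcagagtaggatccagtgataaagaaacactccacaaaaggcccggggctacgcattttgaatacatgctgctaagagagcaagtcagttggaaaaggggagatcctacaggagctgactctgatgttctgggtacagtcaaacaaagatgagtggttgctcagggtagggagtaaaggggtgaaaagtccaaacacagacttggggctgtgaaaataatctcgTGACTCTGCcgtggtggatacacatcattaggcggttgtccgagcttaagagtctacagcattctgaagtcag
Abcc2, chr19:43782058-43782357, plus strand: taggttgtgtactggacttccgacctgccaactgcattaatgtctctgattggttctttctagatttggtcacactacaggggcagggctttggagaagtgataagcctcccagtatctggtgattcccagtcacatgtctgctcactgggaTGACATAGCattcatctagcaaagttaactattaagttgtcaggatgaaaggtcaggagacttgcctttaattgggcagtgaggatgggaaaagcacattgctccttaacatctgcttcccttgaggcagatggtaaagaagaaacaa
Abcc5, chr16:20426345-20426644, minus strand: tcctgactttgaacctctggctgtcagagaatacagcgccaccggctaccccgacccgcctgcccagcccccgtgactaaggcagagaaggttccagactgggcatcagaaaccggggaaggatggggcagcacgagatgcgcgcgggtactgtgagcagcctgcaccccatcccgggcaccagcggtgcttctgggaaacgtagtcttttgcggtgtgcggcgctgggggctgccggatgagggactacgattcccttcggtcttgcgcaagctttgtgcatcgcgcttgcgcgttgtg
The antioxidant response element core stood in 5 of the 7 member windows and in 12.4% of all 32851 windows of the same length. In the first Abcc4 window it lay on the opposite strand of the gene as GCGGGGTCA at bases 226 to 234, and in the second on the strand of the gene as TGACTCTGC at bases 228 to 236, counted from 1 at the 5′ end. In Abcc2 it was TGACATAGC at bases 153 to 161. The remaining matches were in both windows of Abcc10, as TGACATGGC and TGACCTGGC. Abcc10 had log2 fold changes of only 0.14 and 0.05 in its 2 probe sets. Abcc4 and Abcc10 each enter the count with 2 windows, and whether a core goes with a change was not tested. The Ah receptor core was in 1 of the 7 windows, the first of Abcc4, where its complement CACGC stood at bases 150 to 154 and 157 to 161, against 32.4% of all windows. None of these matches overlapped. They are matches of letters, and binding was not measured on these arrays.

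Abcc4 and Abcc3 rose in txnrd1-/- livers, Abcc2 was higher there at the unadjusted threshold alone, and none of the other 5 genes passed either threshold. After Benjamini-Hochberg adjustment over all probe sets, limma called 2 of the 21 member probe sets higher (a difference of at least 1.5-fold with an adjusted p no higher than 0.05), where 0.0266% of all probe sets were called higher. At the thresholds of the study's methods, at least 1.5-fold with p no higher than 0.05, taken as unadjusted, 3 of 21 were higher, where 0.484% of all were. In 3 of 21 every txnrd1-/- liver lay above every control liver, which held for 0.897% of all, and no member probe set was lower by any of these rules. The median log2 fold change was 0.14 over the 21 and 0.00 over all probe sets. It was above 0 in 14 of the 21 and in 23042 of all 45037, and 10 of the 21 read the single gene Abcc5. With the probe sets of a gene averaged, 2 of the 8 genes were called higher after adjustment, Abcc3 and Abcc4, against 0.0769% of all genes. The study named both genes as induced on these same samples, and the members were chosen with results known. These counts are therefore not independent evidence. Beyond the arrays, the paper reports RT-PCR in which nuclear pre-mRNA of Abcc3 and Abcc4 was higher in txnrd1-/- livers. It also cites RT-PCR of liver mRNA for both.

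**Figure D1:**
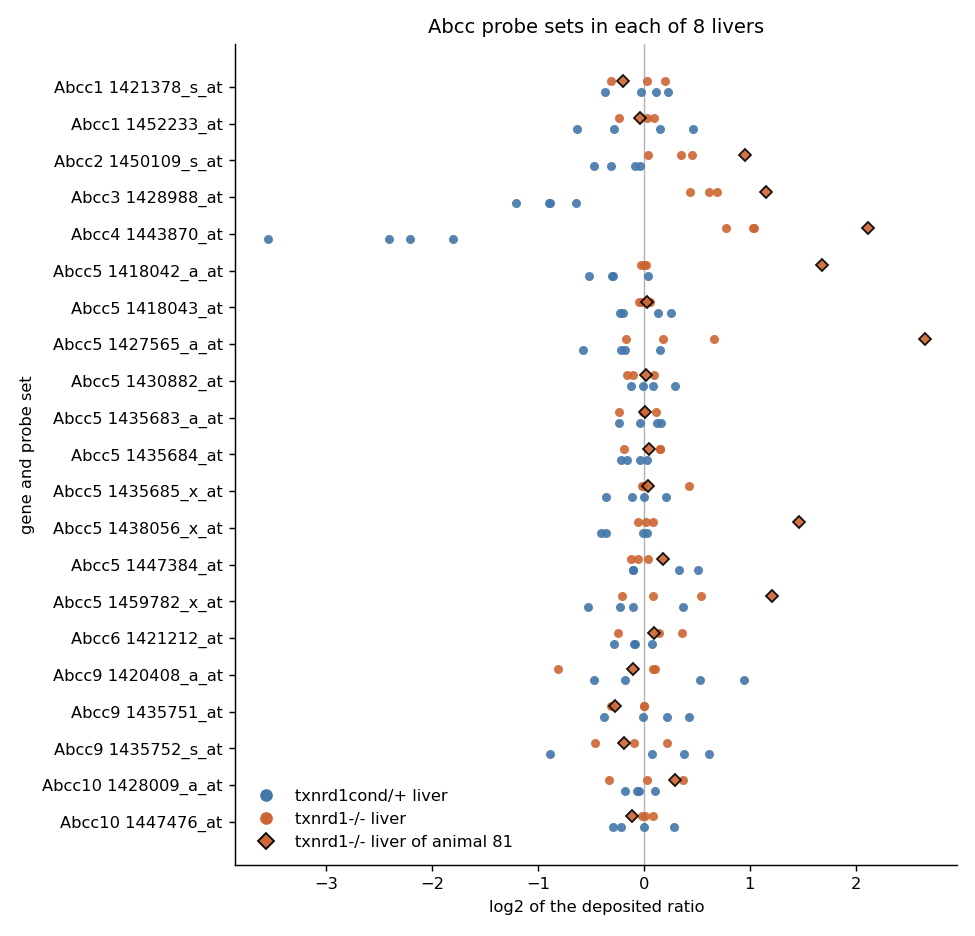
Log2 of the deposited ratio (horizontal axis) of each of the 21 Abcc probe sets (rows) in the 4 txnrd1cond/+ livers and the 4 txnrd1-/- livers, 1 point per liver, with animal 81 as an outlined diamond. The 2 colours separate for Abcc2, Abcc3 and Abcc4, and animal 81 is highest in 7 rows, 4 of them of Abcc5.

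**Figure D2:**
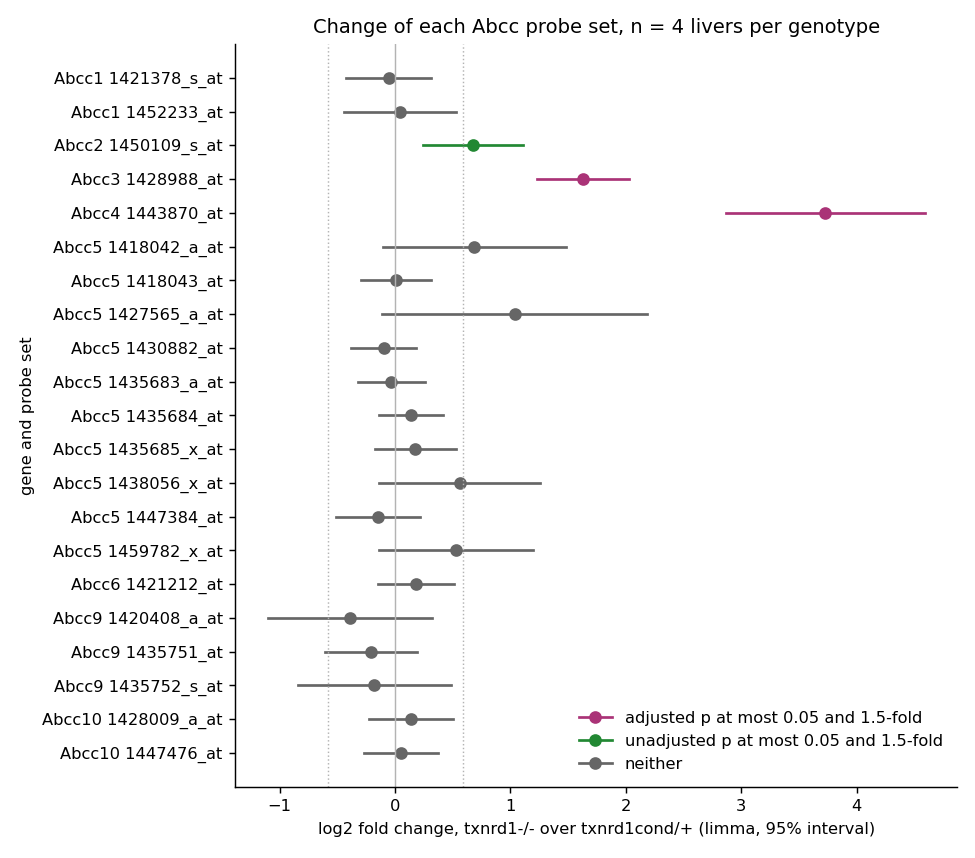
Log2 fold change (horizontal axis) of each Abcc probe set (rows) in txnrd1-/- over txnrd1cond/+ livers, with its 95% interval from limma, n = 4 livers per genotype. Dotted lines mark a 1.5-fold difference. The intervals of Abcc2, Abcc3 and Abcc4 do not reach 0, and those of the other 18 probe sets do.

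Abcc4, a basolateral pump for bile acids, cyclic nucleotides and conjugates, differed most. Its ratio was 0.288, 0.189, 0.217 and 0.0857 in control animals 70, 71, 80 and 82, and 2.05, 1.71, 2.04 and 4.32 in txnrd1-/- animals 69, 72, 73 and 81. The lowest txnrd1-/- liver thus stood well above the highest control liver, while the spread within each genotype was wide, with animal 82 at the bottom and animal 81 at the top. The means were 0.195 ± 0.0839 and 2.53 ± 1.21 (SD, n = 4 each). The log2 fold change was 3.73 (SE 0.39), a 13.2-fold rise with a 95% interval of 7.28 to 24.0, and limma gave an adjusted p = 0.019. An exact permutation test over the 8 livers gave p = 0.0286 (2-sided), the smallest that 4 against 4 allow.

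The fold of Abcc4 stayed large without either liver that stood apart, while its adjusted call was lost without any one of animals 71, 80, 69, 73 and 81. Without animal 81 it was 10.8-fold (log2 fold change 3.43), with limma's adjusted p at 0.055, and without animal 82 the log2 fold change was 3.37 and the adjusted p 0.022. The labels number the animals in 2 ranges, and no source used here says whether these are litters or days. The log2 difference was 3.05 within animals 69 to 73 and 4.99 within animals 80 to 82. With the range as a covariate the adjusted p was 0.053.

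Abcc3, the basolateral pump of glucuronides and bile acids, also rose. Its ratio was 0.435, 0.538, 0.543 and 0.641 in control animals 70, 71, 80 and 82, and 1.35, 1.61, 1.53 and 2.22 in txnrd1-/- animals 69, 72, 73 and 81. The genotypes were far from overlapping, and animal 81 was again the highest. The means were 0.539 ± 0.0841 and 1.68 ± 0.377 (SD, n = 4 each). The log2 fold change was 1.63 (SE 0.18), a 3.09-fold rise with a 95% interval of 2.35 to 4.06, with an adjusted p = 0.025 from limma, and the exact permutation test gave p = 0.0286. It was 2.80-fold without animal 81 (adjusted p = 0.055 in limma), and its adjusted call was lost whichever of the 8 animals was left out (adjusted p from 0.052 to 0.14). The log2 difference was 1.63 within animals 69 to 73 and 1.91 within animals 80 to 82, and the adjusted p with the range as a covariate was 0.0084.

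Abcc2, the canalicular pump that excretes glutathione and glucuronide conjugates such as those of bilirubin into bile, differed less. Its ratio was 0.945, 0.973, 0.722 and 0.808 in control animals 70, 71, 80 and 82, and 1.28, 1.03, 1.37 and 1.94 in txnrd1-/- animals 69, 72, 73 and 81. The groups did not overlap, though animal 72 was only just above animal 71. The means were 0.862 ± 0.118 and 1.40 ± 0.384 (SD, n = 4 each), and the log2 fold change was 0.68 (SE 0.19), 1.60-fold with a 95% interval of 1.18 to 2.15. In limma the unadjusted p was 0.0059 and the adjusted p 1.00. Without animal 81 the difference was 1.42-fold, which is under the 1.5-fold minimum, and the log2 difference was 0.34 within animals 69 to 73 and 1.34 within animals 80 to 82.

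The log2 fold change read by the 1 probe set of each gene differed among these 3 genes. Whether these probe sets respond equally to a change in mRNA was not tested. The log2 fold change of Abcc4 exceeded that of Abcc3 by 2.10 and that of Abcc2 by 3.05, and Abcc3 exceeded Abcc2 by 0.95. Each of 13 such comparisons, of Abcc4 with Abcc3 and of both with the other 6 members, gave p = 0.0286 in an exact permutation test over the livers (2-sided, adjusted over the 13 to 0.0286), the smallest that the design allows. Abcc3 and Abcc4 were known to have risen when they were picked for these comparisons. Between livers of 1 genotype the genes did not keep 1 order: among control livers animal 82 was highest for Abcc3 and lowest for Abcc4, and animal 71 was highest for Abcc2. Among txnrd1-/- livers animal 81 was highest for all 3 genes.

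Abcc5, which exports cyclic nucleotides and other anions in many tissues, gave an uneven reading across its 10 probe sets, none of which passed either threshold in the fit without covariates. In 4 of them the liver of animal 81 was the highest. The probe set 1427565_a_at stood at 0.861, 0.670, 1.11 and 0.884 in control animals 70, 71, 80 and 82, and at 1.13, 0.889, 1.58 and 6.28 in txnrd1-/- animals 69, 72, 73 and 81. The probe set 1418042_a_at stood at 0.810, 0.698, 0.820 and 1.03, and at 1.00, 1.02, 0.984 and 3.21. In the second, the 3 other txnrd1-/- livers lay within the control range, and in the first 1 did, with animals 69 and 73 above it. The other pair, 1438056_x_at and 1459782_x_at, reached 2.76 and 2.32 in animal 81, and across the 4 probe sets the 7 other livers ranged from 0.670 to 1.58. The gap was smallest for 1459782_x_at, where animal 72 stood at 1.45.

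The log2 fold changes of these 4 were 1.04 (SE 0.52), 0.69 (SE 0.35), 0.56 (SE 0.31) and 0.53 (SE 0.30), each with an adjusted p = 1.00 in limma, and without animal 81 they were 0.43, 0.27, 0.20 and 0.26. With the range of animal numbers as a covariate the first 3 passed the study's thresholds, at 1.35, 0.91 and 0.71, and still had an adjusted p = 1.00 in limma. The log2 differences of the 4 lay between 0.067 and 0.62 within animals 69 to 73 and between 1.52 and 2.66 within animals 80 to 82, where animal 81 is the one txnrd1-/- liver. The other 6 Abcc5 probe sets read animal 81 between 1.01 and 1.13, and their log2 fold changes ran from -0.15 to 0.18. Their 95% intervals lay within 0.702-fold and 1.44-fold. The division into 4 and 6 was made after their values were seen and is a description. Over the 8 livers, pairs among the 4 had r between 0.69 and 0.95, pairs among the 6 between -0.78 and 0.57, and pairs across the division between -0.32 and 0.44. By the array's naming, 2 of the 4 end in _a_at, which marks probes shared by transcripts of 1 gene, and 2 in _x_at, which marks probes that may also bind other RNAs. Of the 6, 1 ends in _a_at, 1 in _x_at and 4 in plain _at. No source used here names the Abcc5 transcript that each reads, and the part of cross-hybridisation in the reading of animal 81 was not tested.

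**Figure D3:**
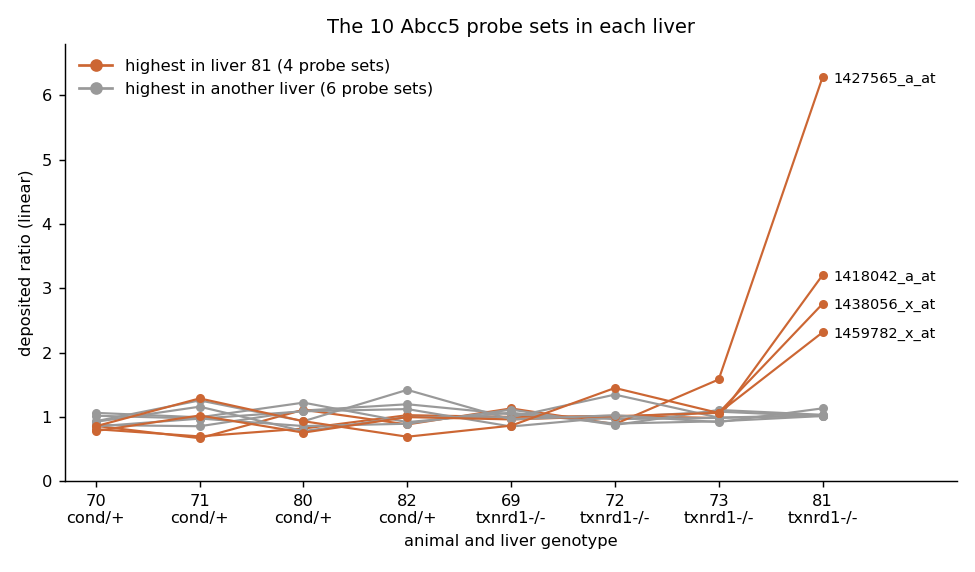
Deposited ratio (vertical axis, linear) of the 10 Abcc5 probe sets in each liver (horizontal axis, animal and genotype), with a line joining the values of 1 probe set. The 4 coloured probe sets reach 2.32 to 6.28 in animal 81, and the 6 grey ones stay between 1.01 and 1.13 there.

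Over the 50 pairs of probe sets that read the same gene, an exact permutation test of unequal change gave at best p = 0.0286, in 4 pairs, and an adjusted p of 0.36 (2-sided). That p is the smallest that 4 against 4 allow. A pair could pass adjustment over the 50 only if many others reached the same value. The test therefore does not decide whether the Abcc5 probe sets changed unequally.

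Abcc1, Abcc6 and Abcc10 were close to level between the genotypes. Abcc1, a pump of glutathione conjugates and leukotrienes that healthy hepatocytes make little of, ranged from 0.645 to 1.38 in control livers and from 0.809 to 1.15 in txnrd1-/- livers over its 2 probe sets, with log2 fold changes of -0.06 and 0.04. Their 95% intervals were 0.745- to 1.24-fold and 0.735- to 1.44-fold. Abcc6, a basolateral protein of hepatocytes whose loss causes ectopic mineralisation, stood at 1.05, 0.943, 0.824 and 0.939 in control animals 70, 71, 80 and 82 and at 1.29, 1.10, 0.847 and 1.07 in txnrd1-/- animals 69, 72, 73 and 81. These groups overlapped, and the log2 fold change was 0.18 (SE 0.15, interval 0.904- to 1.43-fold, limma). Abcc10, a broadly made pump, had log2 fold changes of 0.14 and 0.05 in its 2 probe sets, with intervals of 0.857- to 1.41-fold and 0.832- to 1.29-fold. The intervals leave room for differences of up to about the study's fold minimum in these 3 genes.

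Abcc9, the sulfonylurea receptor, varied between livers within a genotype more than between genotypes. The probe set 1420408_a_at stood at 1.45, 0.885, 1.93 and 0.724 in control animals 70, 71, 80 and 82, and at 1.06, 0.570, 1.08 and 0.933 in txnrd1-/- animals 69, 72, 73 and 81. The control livers of animals 70 and 80 were high and that of animal 82 low in each of the 3 Abcc9 probe sets. Their log2 fold changes were -0.39 (SE 0.32), -0.21 (SE 0.18) and -0.18 (SE 0.30), with adjusted p = 1.00 in limma. Without animal 82 they were -0.61, -0.35 and -0.49, and without animal 80 they were -0.14, -0.087 and 0.011, with no call at either threshold in these fits. Kcnj8 encodes the pore subunit that Abcc9 is known to pair with in vascular smooth muscle, and its ratio was 1.65, 0.933, 1.68 and 0.710 in the same control order and 1.24, 0.881, 1.06 and 0.837 in the txnrd1-/- order. The livers of animals 70 and 80 were thus the 2 highest for both genes, and that of animal 82 was the lowest for Kcnj8 and in the mean of the Abcc9 probe sets.

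Over the 8 livers the mean log2 ratio of Abcc9 went with that of Kcnj8 with Pearson's r = 0.936 and Spearman's rho = 0.976. Without the 2 livers farthest from the median of Kcnj8, animals 70 and 80, r was 0.841. With the mean of 16 probe sets (8 genes) of smooth muscle cells and pericytes, r was 0.781 and rho 0.881, and without animals 81 and 82 r was 0.921. These relations were chosen after the values had been seen and are given as descriptions with no test, and each genotype or range of animal numbers holds fewer than 6 livers, too few for a value of its own. That marker mean lay between -0.21 and 0.19 on the log2 scale in control livers and between -0.30 and 0.15 in txnrd1-/- livers. Its part in the spread of Abcc9 was not tested.

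**Figure D4:**
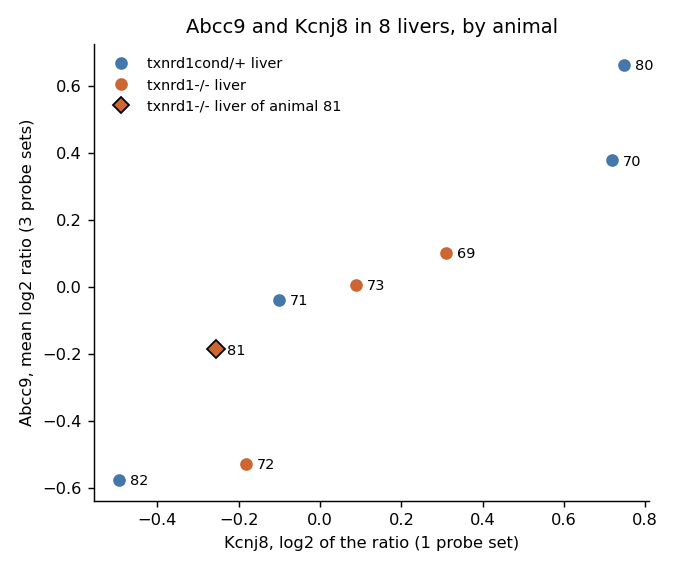
Mean log2 ratio of the 3 Abcc9 probe sets (vertical axis) against the log2 ratio of Kcnj8 (horizontal axis), 1 point per liver with its animal number. Animals 80 and 70 are highest and animal 82 lowest on both axes, and the genotypes are mixed along the trend.

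The rest of the subfamily on the array, Abcc8, Abcc12 and Cftr, was read by 6 probe sets with a median log2 fold change of -0.01. Of these, 1 probe set of Abcc12 passed the unadjusted threshold. It stood at 0.883, 0.738, 0.746 and 0.917 in control animals 70, 71, 80 and 82, and at 1.30, 1.09, 1.53 and 4.62 in txnrd1-/- animals 69, 72, 73 and 81 (log2 fold change 1.12, SE 0.38, adjusted p = 1.00 in limma). Its groups did not overlap, and without animal 81 it was 1.59-fold (log2 fold change 0.67). The other Abcc12 probe set had a log2 fold change of -0.02, so the difference was not shared by both probe sets of the gene.

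The other transporters of the hepatocyte showed no call at either threshold in limma, with 2 of 14 exporter and 1 of 16 carrier probe sets at an unadjusted p under 0.05. Over 14 probe sets of 9 further ABC exporters the median log2 fold change was 0.10. Among them Abcg2, a canalicular exporter of sulfates and porphyrins, stood at 0.827, 0.790, 0.636 and 0.997 in control livers and at 1.12, 1.01, 1.12 and 1.60 in txnrd1-/- livers, in the animal order used above. Its groups did not overlap and its log2 fold change was 0.57 (SE 0.18, adjusted p = 1.00 in limma), just under the fold minimum. The bile salt export pump Abcb11 had a log2 fold change of -0.20 (SE 0.15). Over 16 probe sets of 8 sinusoidal carriers, which bring bile salts and anions in or exchange them, the median was -0.07, and Slc51b, a subunit of the basolateral bile acid exchanger, had the value -0.34 (SE 0.15). Slco1a1, an anion uptake carrier, ran from 0.0521 in animal 80 to 2.86 in animal 82, both controls. List genes that passed no threshold, such as these and Kcnj8, are named here after their values were seen.

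The enzymes that make the cargo of these pumps were described from 3 lists. For glutathione and its conjugates, 16 of 34 probe sets (11 of 22 genes) were higher at the study's thresholds and 4 after adjustment, with a median log2 fold change of 0.55. They read Gclc and Gclm, the subunits of the enzyme that limits glutathione synthesis, and the transferases Gsta2, Gsta4, Gstm1, Gstm2, Gstm3, Gstm4, Gstp1, Gstt2 and Mgst3. The probe set annotated to Gsta2 changed most, with a log2 fold change of 3.83 (SE 0.20, adjusted p = 2.2e-04 in limma). It was the only value of this list as large as that of Abcc4. The paper notes that the probe set in its own entry could not tell Gsta1 from Gsta2. Whether that is the same probe set is not stated in the sources used here. Many genes of this list were picked by the study as induced on these samples, so its count is not independent evidence.

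For glucuronides, 6 of 17 probe sets (4 of 11 genes) were higher at the study's thresholds and 0 after adjustment, with a median of 0.58. These read Ugdh, which makes UDP-glucuronic acid (log2 fold change 1.72, SE 0.22, limma adjusted p = 0.053), Ugp2, which makes UDP-glucose, the glucuronosyltransferase Ugt2b35, and Ugt3a1, which stands in the list as a relative but is known to transfer N-acetylglucosamine. For sulfate conjugates, the third list, 0 of 14 probe sets passed either threshold in limma and 0 had an unadjusted p under 0.05 at any fold, with a median of 0.03. Sult3a1, which makes sulfate conjugates of amines, had a log2 fold change of 1.54 with a wide error (SE 0.79).

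The regulators known to act on Abcc genes showed no call: 0 of 25 probe sets (11 genes) passed either threshold in limma (1, of Hnf4a, had an unadjusted p under 0.05, as lower), with a median log2 fold change of -0.06. Nfe2l2, which encodes Nrf2, had values of -0.34 and -0.36 in its 2 probe sets, and Keap1, whose protein targets Nrf2 for degradation, had 0.11 in both. These are mRNA values. The paper describes Nrf2 as controlled after translation and reports more of its protein in nuclear extracts of txnrd1-/- livers, from female mice. Among 23 probe sets of 12 other known Nrf2 targets, 10 (7 genes) were higher at the study's thresholds and 2 after adjustment, with a median of 0.57. The 7 genes were Cbr3, Ephx1, Gpx2, Me1, Nqo1, Srxn1 and Tkt, and the 2 called after adjustment were Cbr3 and Nqo1, with log2 fold changes of 5.69 and 2.58. Several of these were also picked by the study on these samples. Of the anchors that hold the pumps in their membranes and the channel partners of Abcc9, 0 of 20 probe sets (8 genes) passed either threshold in limma (1, of Slc9a3r2, had an unadjusted p under 0.05, as lower), with a median of -0.10. Aox1, Cyp2b10, Cyp2b13 and Cyp8b1, which the study named beside the pumps, also passed the unadjusted threshold as higher. Of 101 probe sets of markers in 9 lists of cell types, 1 passed it, that of the neutrophil protease Prtn3, as lower.

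**Figure D5:**
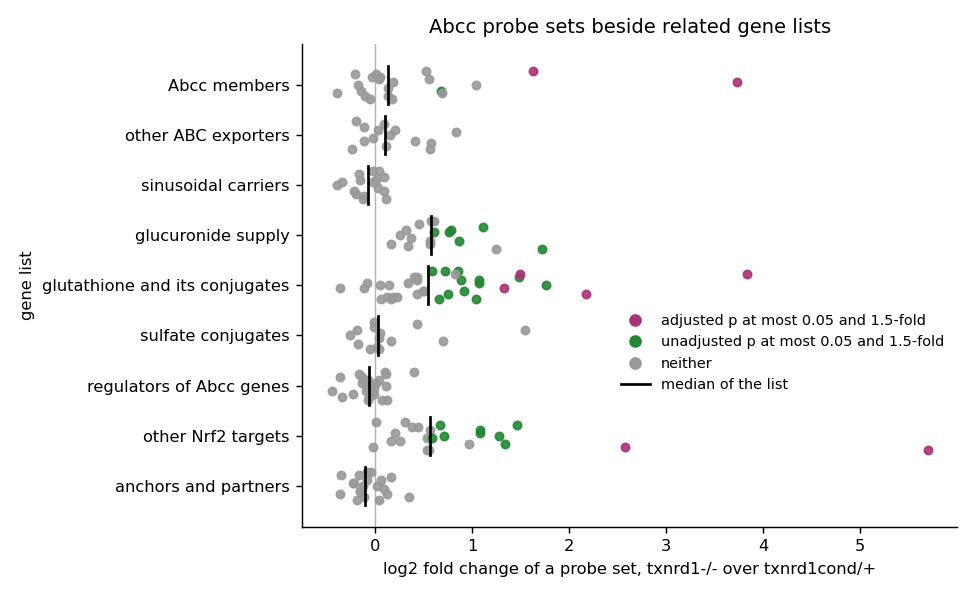
Log2 fold change (horizontal axis) of each probe set in txnrd1-/- over txnrd1cond/+ livers for the Abcc members and 8 lists of related genes (rows), with points spread vertically for legibility and the list median as a black bar. The medians are 0.55 to 0.58 for glutathione supply, glucuronide supply and other Nrf2 targets, 0.14 for the Abcc members, and between -0.10 and 0.10 for the other 5 lists.

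Animal 81 was the highest liver for 7 of the 21 member probe sets (33.3%), those of Abcc2, Abcc3 and Abcc4 and 4 of Abcc5, and for 13.1% of all probe sets. The same liver was highest for 18 of 23 probe sets of other Nrf2 targets (78.3%), 12 of 17 of glucuronide supply (70.6%) and 20 of 34 of glutathione supply (58.8%), and for 0 of 14 each of sulfate supply and of hepatocyte markers. Over the 9 marker lists the share ran from 0% to 30.0% (3 of 10 lymphocyte probe sets). Where txnrd1-/- livers lie above controls, the highest liver must be 1 of those 4. The share over all probe sets is therefore not a like measure for lists that rose. Hmox1, which encodes heme oxygenase, was at 5.96 in animal 81 and between 0.564 and 1.52 in the other 7 livers (chosen after its values were seen). What set this liver apart was not tested.

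The genes whose pattern over the 8 livers was closest to that of Abcc4, Abcc3 and Abcc2 were found by Pearson's r of the log2 ratio, as a description. For Abcc4 they were Mgst3 (r = 0.985), Ugdh (0.980), Gstm3 (0.979), Gsta4 (0.977) and Uros (0.977). For Abcc3 they were Gstm1 (0.982), Cbr3 (0.980), Ddah1 (0.969), Creg1 (0.968) and Entpd5 (0.965). For Abcc2 they were Hnmt (0.983), Exosc5 (0.971), Pex7 (0.968), Ghitm (0.966) and Olfm3 (0.965). With the genotype means taken off, none of the 5 closest genes of Abcc3 and of Abcc4 was among those above, and the closest were Ilrun for Abcc3 (0.981) and Map7 for Abcc4 (0.989). For Abcc2, whose closest gene was then Ythdf3 (0.995), Exosc5 (0.987) and Hnmt (0.980) stayed among the 5.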

How the data were processed

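Liver RNA of 8 mice, 4 txnrd1cond/+ and 4 txnrd1-/-, was hybridised to 1 Affymetrix mouse expression array each. The authors deposited linear ratios, made with GeneSpring per the methods and RMA per the processing notes (versions not given in the sources used here); the median of a probe set over the arrays is within 0.02 of 1 for 98.5% of probe sets, and array medians are 0.997 to 0.999. Because the deposited ratios keep no signal, no minimum signal was applied. Of 45101 probe sets, 64 controls were left out. Platform annotation, updated through RefSeq symbols, gave 34957 probe sets 1 symbol, 920 several and 9160 none; 5 empty values stayed empty.

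Log2 ratios were compared with limma 3.58.1 in R 4.3.3 (lmFit, then eBayes with default settings, on 6 residual degrees of freedom, 2-sided), with Benjamini-Hochberg adjustment over 45037 probe sets or 18201 genes (a gene is the mean of its 1-symbol probe sets). Folds are of geometric means; means ± SD are of ratios. Intervals are at 95%. The labels give a separate animal for each array; precision is limited by how few arrays there are. Scripts were first tested on simulated data. Named are all members, list genes past either threshold and, for each member past one, the 5 genes of highest r. The members and lists were chosen with earlier results of these data known. Alternatives were 2 other scalings, robust and weighted fits, each probe set's own variance, a covariate for the range of the animal number, 2 filters, gene means, an exact permutation test and leaving out each animal. Figures used matplotlib 3.10.9 in Python 3.11.15.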

Additional observations from a re-analysis of the deposited data

Results flagged for a closer look

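Among the 42 groups of 4 livers formed by 21 probe sets and 2 genotypes, 3 held a liver far from the other 3 by Dixon's criterion on the log2 scale, and chance alone gives about 1 in 20. All 3 were Abcc5 probe sets in txnrd1-/- livers. Probe set 1418042_a_at was at 3.21 in animal 81, where the next liver was at 1.02, and 1438056_x_at was at 2.76 in the same animal, with the next at 1.06. Probe set 1435685_x_at was at 1.35 in animal 72, with the next at 1.03. The largest Abcc5 reading, 6.28 for 1427565_a_at in animal 81, did not pass the criterion, since the other 3 livers of its group were themselves spread.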

How the results depend on the processing

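Over the 18 alternatives the log2 fold change ran from 1.48 to 1.73 for Abcc3 and from 3.37 to 3.96 for Abcc4. Its direction could not turn in many of them. Own variance, the 2 filters, the gene mean and the exact permutation test leave the fold change as it was. Leaving out 1 animal cannot reverse groups that do not overlap. The adjusted calls were close to the threshold. The adjusted count of 2 member probe sets was 1 with quantile normalization (Abcc4), 1 with a covariate for the range of the animal number (Abcc3), 0 with each probe set's own variance, and 0 to 1 when 1 animal was left out. It was 1 (Abcc4) without animals 70, 82 or 72 and 0 without animals 71, 80, 69, 73 or 81. In those 8 fits limma's adjusted p was 0.052 to 0.14 for Abcc3 and 0.022 to 0.12 for Abcc4. The count of 3 at the study's thresholds was 6 with the covariate (3 more of Abcc5), 4 with quantile normalization (1 more of Abcc5), 5 among the 50% of probe sets of larger SD (2 more of Abcc5), and 2 to 4 when 1 animal was left out, 2 being without animal 81 (Abcc2 lost) and 4 without animal 69 or 72 (1 of Abcc5 gained). The totals over all probe sets moved as well. The adjusted total of 12 was 16 with quantile normalization, 9 with the covariate, 0 with own variance and 3 to 8 when 1 animal was left out. It was 28 with robust regression, 20 with array weights and 59 of 22519 probe sets of larger SD. The total of 253 at the study's thresholds was 302 with the covariate, 274 with quantile normalization and 182 with own variance. It was 393 of 22519 probe sets of larger SD, and 206 to 479 when 1 animal was left out. The cause of these shifts was not tested.

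The sign turned 21 times, in probe sets that passed no threshold. When 1 animal was left out, the log2 fold change ran from -0.17 to 0.026 for Abcc1 1421378_s_at, from -0.14 to 0.22 for Abcc1 1452233_at, from -0.064 to 0.098 for Abcc5 1418043_at, from -0.11 to 0.037 for Abcc5 1435683_a_at, from -0.49 to 0.011 for Abcc9 1435752_s_at and from -0.026 to 0.16 for Abcc10 1447476_at. Array weights turned Abcc1 1421378_s_at to 0.035. The covariate turned Abcc5 1435683_a_at to 0.014 and Abcc10 1447476_at to -0.020. The gene mean was -0.0069 for Abcc1, against a positive 1452233_at, and 0.29 for Abcc5, against the negative 1430882_at, 1435683_a_at and 1447384_at. No paired analysis was possible because the groups share no animal number. With no signal in the ratios, dim probe sets cannot be told from bright ones.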
